A study of Mus musculus with 12 samples.

Results

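The comparison described here asks whether the response of the mouse colon to dextran sulfate sodium (DSS) depended on the genotype of the STING gene Tmem173 in myeloid cells. It is the genotype by DSS interaction: the DSS response of Tmem173iΔmye mice minus the DSS response of Tmem173fl/fl mice, fitted over all 12 libraries of the series. A gene entered when its deposited FPKM (fragments scaled to gene length and library depth) reached 0.1 in at least 3 libraries, which held for 24102 of the 54532 genes in the table. The 4 groups had 3 libraries each: untreated Tmem173fl/fl colon (floxed, no Cre), untreated Tmem173iΔmye colon, Tmem173fl/fl colon after DSS and Tmem173iΔmye colon after DSS. Tmem173iΔmye mice were Tmem173fl/fl mice that also carried Lyz2-Cre-ert2, a tamoxifen-inducible Cre driven from the lysozyme 2 locus, which is active in macrophages, monocytes and neutrophils. All mice, controls included, had received 5 tamoxifen injections, and the DSS groups then drank DSS for 7 days. The labels give no strain or age for the single libraries. In the text these groups are called fl/fl and iΔmye, before and after DSS.

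STING is an adaptor on the endoplasmic reticulum that cyclic dinucleotides, including the cGAMP made by the DNA sensor cGAS, switch on. It then recruits the kinase TBK1, which leads to interferon and NF-kB target genes. DSS strips the colonic epithelium and lets luminal bacteria reach the tissue, so the response combines leukocyte entry, fibroblast and vessel activation, loss of mature epithelial transcripts and repair. A difference in the DSS response can therefore take several forms: every gene may respond less by one factor, some programmes may respond as much in both genotypes, and some may go another way.

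The libraries held 13823237 to 18718915 counts on genes, and mitochondrial genes took 2.03% to 6.62% of them. Xist, expressed in cells with 2 X chromosomes, was high in 3 libraries (untreated fl/fl 3, untreated iΔmye 3 and DSS iΔmye 5), so the DSS-treated fl/fl group had none of that kind. Goblet cell and colonocyte transport genes, which mark colon epithelium, were expressed in each group, with mean list levels of 6.11 to 8.98 log2 CPM. The libraries came from whole colon, in which fewer cells of a type and less RNA per cell cannot be told apart. Tmem173 itself was measured at 24.5, 14.3 and 22.9 CPM in untreated fl/fl, 42.4, 44 and 37.6 in DSS-treated fl/fl, 17.2, 14.6 and 21.3 in untreated iΔmye and 47.8, 23.8 and 31.1 in DSS-treated iΔmye (CPM, counts scaled to library size after TMM normalisation, with libraries in the order of their numbers), and its interaction was -0.06 (SE 0.37, adjusted p = 0.968). These counts cover the whole gene and every cell type, so they do not check the deletion in myeloid cells. Lyz2, whose locus drives the Cre, had an interaction of 0.48 (SE 0.37, adjusted p = 0.535). It was 0.13 without untreated fl/fl 3 and 0.64 without DSS iΔmye 2.

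Of the 24102 genes, 614 (2.55%) had a DSS response that differed between the genotypes by at least 1 on the log2 scale at an adjusted p under 0.05 in edgeR's quasi-likelihood test. The difference was negative for 389 genes (1.61%), which ended lower in iΔmye colon than the fl/fl response would give, and positive for 225 (0.934%). When single libraries were left out, the total ran from 267 (without untreated fl/fl 1) to 1728 (without DSS iΔmye 1). The genes called lower then numbered 176 to 1020 and those called higher 90 to 708. Among the 389 the median response was 2.59 in fl/fl and 0.84 in iΔmye colon, and among the 225 it was -1.83 and 0.04. For 450 of the 614 both responses pointed the same way and the iΔmye response was the smaller. Of these, 341 rose and 109 fell in fl/fl colon, all 450 were called there, and 140 were also called in iΔmye colon. Opposite signs were fitted for 162 genes, of which 114 were called in fl/fl colon and only 18 in iΔmye colon. The larger response was in iΔmye colon for 2 genes. The interaction and both responses come from the same libraries, so these shapes are a description with no test. Taken alone, DSS changed 5127 genes (21.3%) in fl/fl colon, of which 3145 (13%) rose and 1982 (8.22%) fell, and 981 genes (4.07%) in iΔmye colon, of which 730 (3.03%) rose and 251 (1.04%) fell. The list counts below are to be read beside these shares of all genes, for the interaction and for each response. A count of 0 in a short list is near the smaller of these shares.

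**Figure D1:**
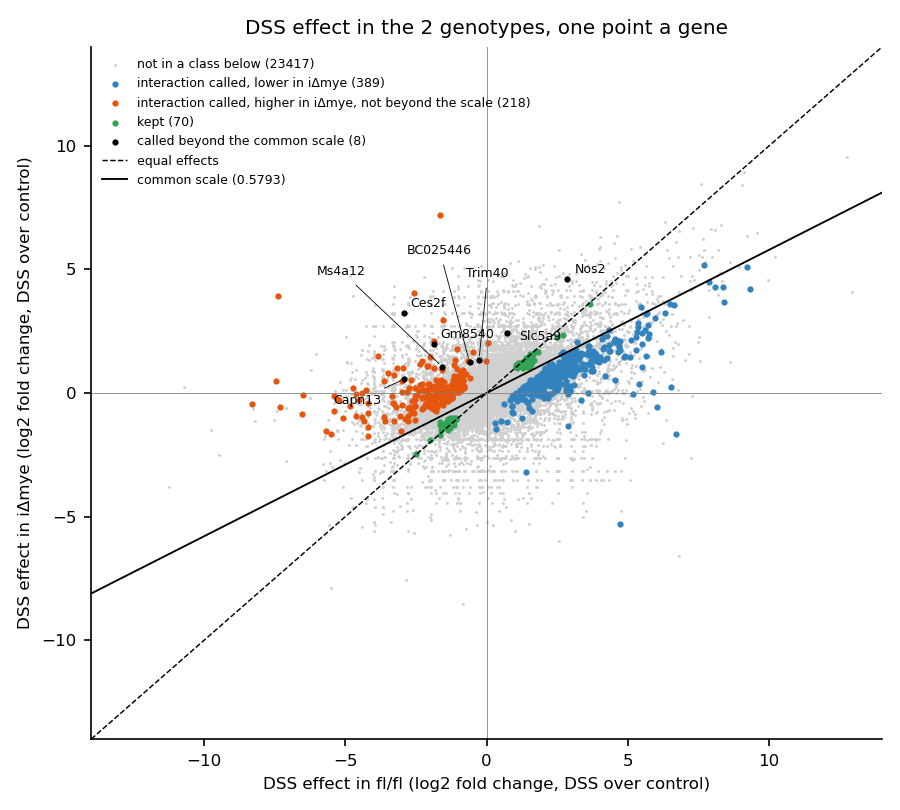
Log2 fold change to DSS in iΔmye colon (y) against fl/fl colon (x) for the genes tested, with 3 libraries in each group. The dashed line marks equal responses and the solid line the common scale of 0.579, and colours mark the 389 genes called lower and the called higher genes of the interaction, the 70 kept genes and the 8 genes beyond the common scale, which all lie above the solid line.

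A single factor was fitted first. Over the 3965 genes (16.5%) called for the mean DSS response of both genotypes, a line through the origin gave an iΔmye response that was 57.9% of the fl/fl response. Each DSS library was also set against the untreated mean of its own genotype and compared with the response of the other fl/fl libraries, and fl/fl libraries lay at 1.02, 1.04 and 0.98 of it (mean 1.01 ± 0.03, SD, n = 3). The iΔmye libraries after DSS lay at 0.70, 0.56 and 0.38 (0.55 ± 0.16). The fl/fl libraries were set against their own group over the same untreated libraries, so values near 1 follow from the construction, and the spread of the sets is not compared. The share of mitochondrial counts moved with this number, at 3.24%, 4.21% and 6.62% in those iΔmye libraries and 2.03% to 2.73% in the fl/fl libraries after DSS, and its part in the result was not tested. Without the lowest library, DSS iΔmye 5, the common scale was 0.686, and without untreated fl/fl 3 it was 0.514.

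The next 2 questions follow from this scale. The first is which programmes were blunted, and the second is which genes departed from it. A gene was called beyond the common scale when its iΔmye response differed from 0.579 times its fl/fl response by at least 1 on the log2 scale at an adjusted p under 0.05. Only 8 genes (0.0332%) passed in edgeR, all of them higher than the scale, and 2007 had an unadjusted p under 0.05. A response was called kept when DSS changed the gene in both genotypes in the same direction and the 95% interval of the interaction lay within 1 of 0. There were 70 such genes (0.29%), 41 that rose and 29 that fell, among 853 called in both genotypes with the same sign. The rule does not show equal responses, since a modest response cut to the common scale can also meet it. The intervals of the kept genes Flot2 (-0.85 to -0.011) and Mettl7a1 (0.008 to 0.91) excluded 0 on the side of a smaller iΔmye response. When single libraries were left out, the kept genes numbered 29 (without DSS fl/fl 1) to 172 (without DSS iΔmye 5). Those sets held 26 to 48 of the 70, and the libraries of low Xist level alone gave 16 of them.

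**Figure D2:**
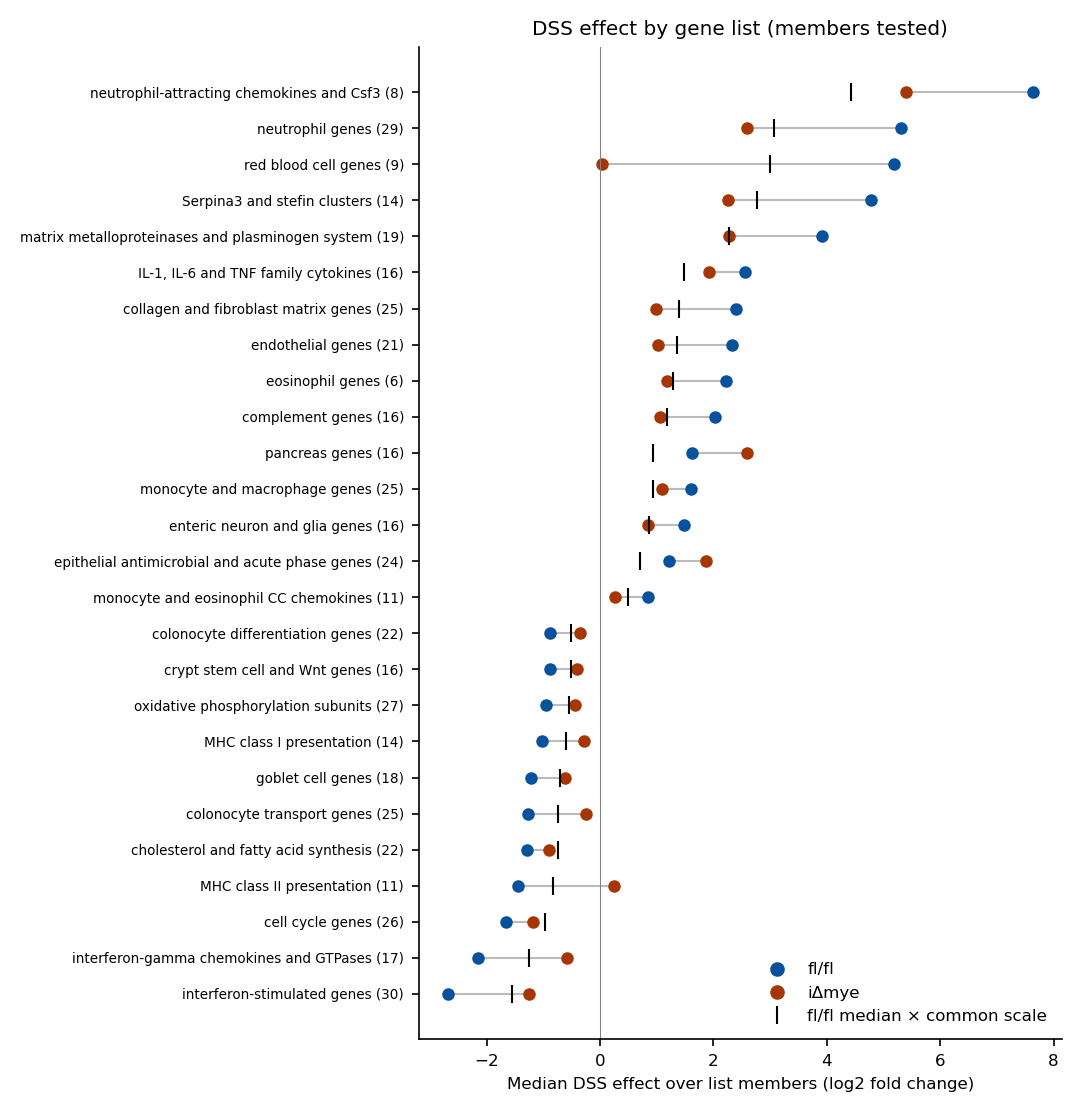
Median log2 fold change to DSS over the tested members of 26 gene lists, in fl/fl colon (blue) and iΔmye colon (brown), with a tick at the fl/fl median times the common scale. Collagen and red blood cell lists lie short of the tick in iΔmye colon. The cytokine list and the list of neutrophil-attracting chemokines with Csf3 lie past it.

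Most fibroblast matrix genes were called lower in the interaction. Of 25 collagen and fibroblast matrix genes, 23 rose in fl/fl and 10 in iΔmye colon, and 17 were called lower in the interaction, against 1.61% of all genes. All 25 fitted interactions were below 0, with a median of -1.47 (median responses 2.40 and 0.98), beside 0.04 over all genes and -0.61 over the 3965 genes of the scale. The mean log2 CPM of the list was 6.43 ± 0.04 in untreated fl/fl, 9.06 ± 0.12 in DSS-treated fl/fl, 6.5 ± 0.14 in untreated iΔmye and 7.5 ± 0.32 in DSS-treated iΔmye (SD, n = 3), so that the iΔmye change was 38% of the fl/fl change (30.9% to 42% when single libraries were left out). The count of members called lower ran from 10 without untreated fl/fl 3 or untreated iΔmye 3 to 22 without DSS iΔmye 1, and was 9 in the libraries of low Xist level alone. Col1a1, a chain of the main fibrillar collagen, had an interaction of -1.72 (SE 0.39, adjusted p = 0.0366).

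Genes that build or cross-link the matrix were among those with the smallest p. Col5a2, a chain of fibrillar collagen V, stood at 56, 55 and 65.3 CPM in untreated fl/fl, 422, 414 and 379.6 in DSS-treated fl/fl, 66.8, 51.4 and 61.3 in untreated iΔmye and 138, 103 and 113 in DSS-treated iΔmye. Its 3 iΔmye libraries after DSS lay between the controls and the fl/fl libraries after DSS, with no overlap, and the interaction was -1.80 (SE 0.23, adjusted p = 0.00337). Col3a1, the most abundant member at the level of FPKM, was at 508, 486 and 580.1 CPM before and 4378, 3301 and 3546 CPM after DSS in fl/fl mice, and 599.6, 440.5 and 596 CPM before and 1429, 879.9 and 1090.0 CPM after DSS in iΔmye mice, with an interaction of -1.78 (SE 0.29, adjusted p = 0.00832). Lox (ENSMUSG00000024529, chr18:52516069-52529867 on GRCm38), the lysyl oxidase that cross-links collagen and elastin, had the smallest p of the named genes. It was at 329, 319.6 and 243 CPM in DSS-treated fl/fl and 40.8, 52.9 and 51.5 CPM in DSS-treated iΔmye colon, from 5.23, 6.03 and 8.46 CPM and 7.71, 9.7 and 9.5 CPM without DSS, and its interaction was -3.06 (SE 0.28, adjusted p = 0.000756). The responses of Lox were 5.50 and 2.43. Its relative Loxl2 (-2.06), the fibulin gene Fbln2 (-2.36), the matrilin gene Matn2 (-1.94) and Col12a1 (-2.47) were also called lower, and none of these calls was lost when any single library was left out. The calcium-binding matrix gene Smoc2 (-1.26, SE 0.27, adjusted p = 0.0298) lost its call in 8 of the 12 fits that left out a library, with an adjusted p of up to 0.0762.

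Proteases and their inhibitors followed the matrix genes. Of 19 genes of matrix metalloproteinases and the plasminogen system, 17 rose in fl/fl and 13 in iΔmye colon. In the interaction 12 were called lower, against 1.61% of all genes. The median interaction was -1.89, or -2.05 with a bound for 1 member whose counts were at the floor of 3 per library. The list level changed in iΔmye colon by 49% of its change in fl/fl colon, and the count of called members ran from 6 without untreated fl/fl 2 to 14 without DSS iΔmye 1. Adamts1 (ENSMUSG00000022893, chr16:85793827-85803113 on GRCm38), a secreted protease that cuts proteoglycans, was at 6.51, 5.42 and 8.02 CPM in untreated fl/fl, 314, 330.4 and 386 in DSS-treated fl/fl, 7.53, 8.92 and 6.43 in untreated iΔmye and 74.2, 75.1 and 66.1 in DSS-treated iΔmye. The 3 iΔmye libraries after DSS stood above every control and below every fl/fl library after DSS, and the interaction was -2.46 (SE 0.25, adjusted p = 0.000756). Serpine2, protease nexin 1, was at 6.21, 10.7 and 10.3 CPM before and 246, 179.9 and 259.5 CPM after DSS in fl/fl mice, and 14, 14.1 and 8.18 CPM before and 38, 46 and 31.7 CPM after DSS in iΔmye mice, and its interaction was -2.98 (SE 0.36, adjusted p = 0.0029). Mmp14 (-1.72) and Mmp2 (-2.52), a membrane collagenase and the gelatinase that it activates, were called lower, as were the stromelysins Mmp3 (-2.51) and Mmp10 (-4.12) and the collagenase Mmp13 (-3.08). Mmp3, Mmp10 and Mmp13 still had iΔmye responses of 5.17, 5.10 and 2.53.

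**Figure D3:**
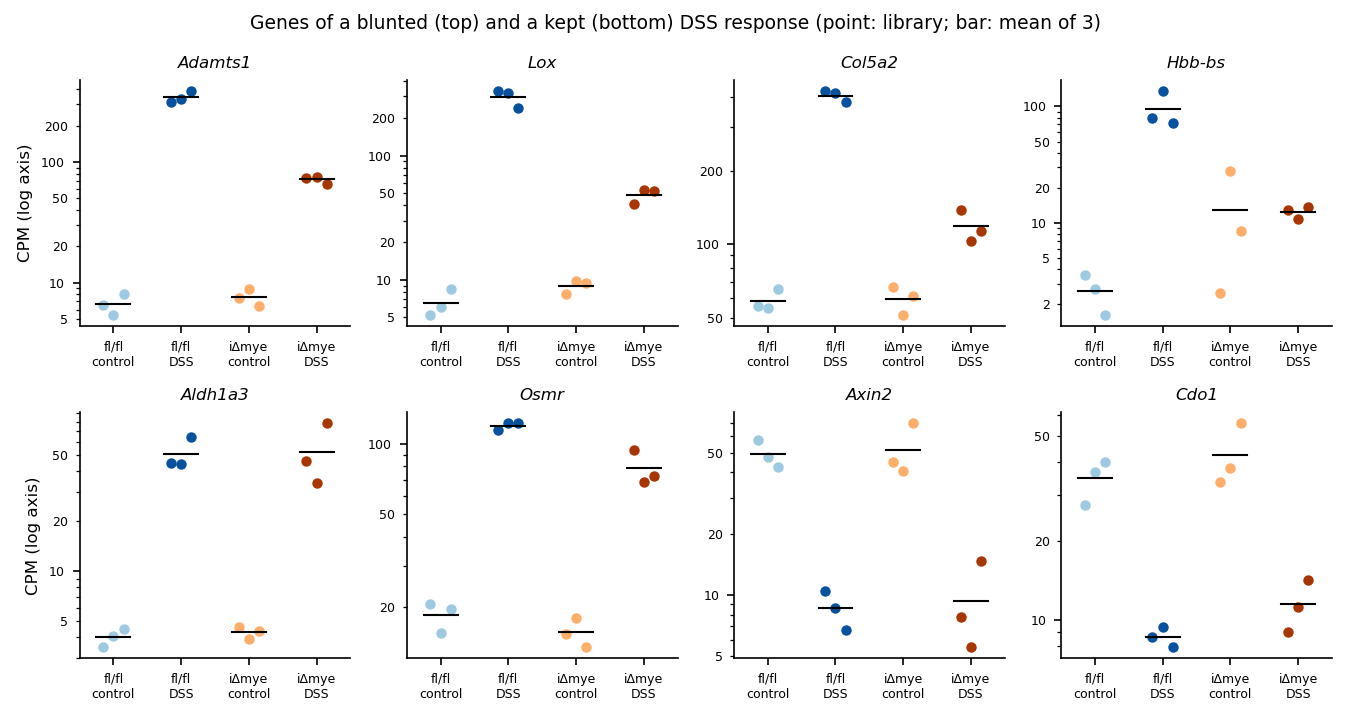
CPM (log axis) in each library for 4 genes with a blunted response (Adamts1, Lox, Col5a2, Hbb-bs) and another 4 with a kept response (Aldh1a3, Osmr, Axin2, Cdo1), as points with the group mean. In the blunted genes the DSS-treated iΔmye points lie below the fl/fl points after DSS, and in the kept genes the points of both genotypes after DSS overlap, except for Osmr.

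Some vessel genes were called lower. Among 21 endothelial genes, 20 rose in fl/fl and 11 in iΔmye colon. In the interaction 6 were called lower, against 1.61% of all genes, and the median interaction was -1.30. The number called ranged from 3 without untreated fl/fl 2 to 14 without DSS iΔmye 1, and DESeq2 also called 14. In the libraries of low Xist level alone 2 were called. Angpt2, a ligand of the endothelial receptor Tie2 that loosens vessel walls, was at 34.7, 29.7 and 34.6 CPM in DSS-treated fl/fl and 5.77, 6.04 and 4.67 CPM in DSS-treated iΔmye colon, from 1.59, 1.15 and 2.69 CPM and 2.19, 2.52 and 1.86 CPM without DSS, with an interaction of -2.85 (SE 0.39, adjusted p = 0.00495). Kcnj8, a potassium channel subunit of pericytes, was at 8.41, 11 and 10.3 CPM in untreated fl/fl, 206, 245 and 235 in DSS-treated fl/fl, 12.4, 13.9 and 11.9 in untreated iΔmye and 68.3, 49.6 and 55.7 in DSS-treated iΔmye, and its interaction was -2.35 (SE 0.23, adjusted p = 0.000756). The receptor genes Flt1 (-1.60) and Tie1 (-1.71) were called lower, while Pecam1 (-1.07, SE 0.33, adjusted p = 0.102) was not. Epn2, an endocytic adaptor, had an interaction of -1.69 (SE 0.20, adjusted p = 0.0029). Smooth muscle genes, which also belong to the wall, gave no call among 14, with a median interaction of -0.18 (-0.34 without DSS fl/fl 2 and -0.057 without DSS iΔmye 2).

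Red blood cell genes had a median interaction of -5.02. Of 9, 7 rose in fl/fl and 0 in iΔmye colon, beside 13% and 3.03% of all genes. In the interaction 5 were called lower, against 1.61% of all genes. Median responses were 5.19 and 0.03 (4.71 and 0.03 with a bound for the member at the floor). The range of called members was 3 without untreated fl/fl 1 to 6 without untreated iΔmye 1, and 1 in the libraries of low Xist level alone. Hbb-bs, an adult beta globin gene, was at 3.56, 2.71 and 1.63 CPM in untreated fl/fl, 79.7, 135 and 71.5 in DSS-treated fl/fl, 2.49, 27.7 and 8.6 in untreated iΔmye and 12.8, 10.8 and 13.8 in DSS-treated iΔmye. Untreated iΔmye 2 held more than each iΔmye library after DSS, and the interaction was -5.24 (SE 0.83, adjusted p = 0.00832). Hba-a1 (-5.88), Hbb-bt (-6.62) and Alas2 (-5.02), the erythroid enzyme that opens heme synthesis, were called lower too. The globin pairs are near copies, so reads may be split between them. Hmox1, which breaks down heme, was lower by an interaction of -3.40 (SE 0.49, adjusted p = 0.0059), at 6.89, 5.28 and 6.76 CPM before and 166, 299.6 and 85.9 CPM after DSS in fl/fl mice, and 6.67, 9.46 and 7.27 CPM before and 25.8, 22.3 and 16.7 CPM after DSS in iΔmye mice. Among 17 iron and heme genes 3 were called lower (2 without untreated fl/fl 1 or untreated fl/fl 3, and 4 without DSS iΔmye 1), the other two being Lcn2 and Hp, and the median interaction was 0.06 (-0.38 without untreated fl/fl 1 and 0.16 without untreated iΔmye 2).

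Many neutrophil genes rose in both genotypes, and 2 differed between them in the interaction test. Of 29, 24 rose in fl/fl and 17 in iΔmye colon, with median responses of 5.31 and 2.60 and a median interaction of -2.52. For 11 of the 29 a group was at the floor, and with these at their bound the medians were 4.11, 2.54 and -2.05. The list level was -0.91 ± 0.49 in untreated fl/fl, 3.92 ± 0.17 in DSS-treated fl/fl, -0.66 ± 0.39 in untreated iΔmye and 1.42 ± 0.82 in DSS-treated iΔmye, and the ranges after DSS did not overlap. Lcn2 and Itgam were the genes called lower, against 1.61% of all genes. Lcn2, the siderophore-binding lipocalin made by neutrophils and epithelium, was at 858, 1019 and 424 CPM in DSS-treated fl/fl and 83.2, 86.8 and 14.3 CPM in DSS-treated iΔmye colon, from 2.04, 2.44 and 2.44 CPM and 4, 3.17 and 2.28 CPM without DSS, with an interaction of -4.09 (SE 0.73, adjusted p = 0.0134). Itgam, the integrin CD11b (-1.31, SE 0.30, adjusted p = 0.0384), lost its call in 10 of 12 fits that left out a library (adjusted p up to 0.0924). S100a8 and S100a9, the calprotectin subunits, had interactions of -2.54 (SE 1.24, adjusted p = 0.303) and -3.83 (SE 1.15, adjusted p = 0.0869), which did not pass. Of the 29 fitted interactions 27 were below 0 and 2 above. The neutrophil marker Ly6g was among those above, at 0.81 (SE 0.58, adjusted p = 0.498).

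Most members of a list of chemokines that draw neutrophils, together with the gene Csf3, rose in both genotypes. All 8 rose in fl/fl and 6 in iΔmye colon, with median responses of 7.63 and 5.4 (7.16 and 4.54 at the bound for 4 members). All 8 fitted interactions were below 0, with a median of -2.95 (-2.64 at the bound), and 2 were called lower, against 1.61% of all genes. The iΔmye change of the list was 60.1% of the fl/fl change, beside 43.1% for neutrophil genes, a contrast that was not tested. Cxcl1, a CXCR2 ligand, was at 0.303, 0.203 and 0.313 CPM in untreated fl/fl, 97.3, 63.2 and 38.9 in DSS-treated fl/fl, 0.425, 0.719 and 0.601 in untreated iΔmye and 12, 12.4 and 15.8 in DSS-treated iΔmye. Its iΔmye libraries after DSS stood above every control and below every fl/fl library, and the interaction was -3.38 (SE 0.58, adjusted p = 0.00838). Pf4, the platelet chemokine, had an interaction of -3.50 (SE 0.50, adjusted p = 0.0059). Cxcl2 (-2.46, SE 0.79, adjusted p = 0.112) and Cxcl5 (-1.93, SE 0.82, adjusted p = 0.226) did not pass. Among 11 CC chemokines for monocytes and eosinophils Ccl2 was called lower (-2.27, SE 0.55, adjusted p = 0.0443), a call lost in 10 of 12 fits without a library (adjusted p up to 0.113).

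Most cytokines of the IL-1, IL-6 and TNF families rose in each genotype. Of 16, 11 rose in each genotype, with median responses of 2.56 and 1.92 and a list change in iΔmye colon of 73.3% of that in fl/fl colon (65% to 78.9% without single libraries). Relative to the common scale 13 of the 16 lay above 0, with a median of 0.56 (0.33 without DSS iΔmye 1 and 0.96 without untreated fl/fl 3), and none was called. Il1b had responses of 2.86 and 2.15 and Tnf of 0.79 and 1.63, and neither interaction passed (adjusted p = 0.635 and 0.38). Il18, an epithelial member of the IL-1 family, was called higher in the interaction (2.13, SE 0.50, adjusted p = 0.0417), at 40.9, 23.1 and 35.8 CPM before and 28.9, 17.6 and 25.7 CPM after DSS in fl/fl mice, and 35.4, 32.2 and 24.4 CPM before and 52.4, 72.7 and 165 CPM after DSS in iΔmye mice. That call was lost in 8 of 12 fits without a library (adjusted p up to 0.109).

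Macrophage genes held 2 calls. Of 25 monocyte and macrophage genes 18 rose in fl/fl and 8 in iΔmye colon, and the median interaction was -0.72. The called members were Mrc1 and Cd163, a mannose receptor and a hemoglobin scavenger receptor found on resident macrophages. Mrc1 was at 22, 18.3 and 30.7 CPM in untreated fl/fl, 212, 234 and 195 in DSS-treated fl/fl, 28.8, 33.7 and 27.7 in untreated iΔmye and 72.6, 74.5 and 46.2 in DSS-treated iΔmye, with an interaction of -2.08 (SE 0.30, adjusted p = 0.0059), and Cd163 had -2.69 (SE 0.51, adjusted p = 0.0167), with an adjusted p of 0.0524 without untreated fl/fl 1. Of 12 genes of the cGAS-STING pathway 0 were called in edgeR in either direction, and their median interaction was 0.07 (-0.11 without DSS iΔmye 1 and 0.23 without untreated iΔmye 2). The IL-12 family (9), dendritic cell genes (17) and T and NK cell genes (27) also gave 0 calls. Over all genes 2.55% were called in the interaction. In lists of this size 0 calls is near that share and does not show an equal response.

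Prostaglandin genes had calls in both directions. Of 15 prostaglandin genes 3 were called lower and 2 higher, beside 1.61% and 0.934% of all genes. Both counts fell to 1 in most fits without a library and were 3 without DSS iΔmye 1. Ptges, the inducible prostaglandin E synthase, was at 149, 129.6 and 127 CPM in DSS-treated fl/fl and 28.1, 23.3 and 10.7 CPM in DSS-treated iΔmye colon, from 10, 9.27 and 10.8 CPM and 9.83, 10.8 and 13 CPM without DSS, with an interaction of -2.87 (SE 0.37, adjusted p = 0.00397). Ptgs2, the inducible cyclooxygenase, was at 16.4, 10.2 and 15.7 CPM in untreated fl/fl, 545, 129 and 422 in DSS-treated fl/fl, 9.65, 11.6 and 9.02 in untreated iΔmye and 50.1, 47.4 and 20 in DSS-treated iΔmye and had an interaction of -2.74 (SE 0.61, adjusted p = 0.0333). The call of Ptgs2 was lost in 9 of 12 fits without a library (adjusted p up to 0.0809). Pla2g2a, a secreted phospholipase with antibacterial activity, was called higher (5.34, SE 0.95, adjusted p = 0.0122). Among the regulators Cebpb was called lower (-2.27, SE 0.35, adjusted p = 0.00712), while Cebpd (-1.53, SE 0.36, adjusted p = 0.039) lost its call in 9 of 12 fits (adjusted p up to 0.101).

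Promoter sequence is shown for genes of both directions, to set motif letters beside their values. AP-1, NF-kB and C/EBP factors bind inflammatory promoters, and the ISRE and GAS elements bind factors that interferons activate. The windows are the 250 bases before the annotated start from RefSeq on GRCm38.p6, written 5′ to 3′ along the gene's strand, with motif matches in capitals. The 5 motifs searched on both strands were NF-kB as GGGA, any base, TTTCC, AP-1 as TGANTCA, C/EBP as TTGCNNAA, the gamma-activated site GAS as TTCNNNGAA and the interferon-stimulated response element ISRE as TTTC, NN, TTTC. The 6 genes printed were chosen after matches were seen. In Cxcl1 the capitals are an NF-kB match 71 bases before the start (chr5:90890995-90891244, plus strand), and in Ptgs2 a C/EBP match 69 bases before the start (chr1:150099781-150100030, plus strand).
Cxcl1: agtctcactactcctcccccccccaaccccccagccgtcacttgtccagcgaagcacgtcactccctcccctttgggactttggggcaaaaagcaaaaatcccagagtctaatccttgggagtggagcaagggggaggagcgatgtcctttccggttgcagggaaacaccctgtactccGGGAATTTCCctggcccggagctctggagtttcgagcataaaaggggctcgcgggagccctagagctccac
Ptgs2: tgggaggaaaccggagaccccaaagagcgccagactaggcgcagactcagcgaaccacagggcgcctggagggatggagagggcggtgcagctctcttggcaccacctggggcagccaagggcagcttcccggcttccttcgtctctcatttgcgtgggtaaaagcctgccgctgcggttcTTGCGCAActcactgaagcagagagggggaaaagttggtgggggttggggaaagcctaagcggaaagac

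Most interferon-stimulated genes fell with DSS in fl/fl colon. Of 30, 29 fell in fl/fl and 9 in iΔmye colon, with median responses of -2.69 and -1.26. All 30 fitted interactions were above 0, with a median of 1.32, and 4 were called higher, against 0.934% of all genes. The list level was 6.87 ± 0.60 in untreated fl/fl, 4.26 ± 0.66 in DSS-treated fl/fl, 6.67 ± 0.22 in untreated iΔmye and 5.44 ± 0.20 in DSS-treated iΔmye. The number of called members was 1 without untreated iΔmye 1, untreated iΔmye 3 or DSS fl/fl 1 and 13 without DSS fl/fl 2, and DESeq2 called 10. The level in iΔmye colon changed by 47.1% of the fl/fl change, and the median beyond the common scale was 0.27 (0.022 without untreated fl/fl 1 and 0.61 without DSS iΔmye 5), with 0 members called there by edgeR.

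The called members were 2'-5'-oligoadenylate synthetase genes, an RNA sensor and Ifi44. Oas1g stood at 172, 102 and 89.7 CPM in untreated fl/fl, 11.2, 19.5 and 13 in DSS-treated fl/fl, 107, 107 and 89.8 in untreated iΔmye and 54.9, 50.8 and 54.6 in DSS-treated iΔmye, and its interaction was 2.13 (SE 0.34, adjusted p = 0.00793). All 3 iΔmye libraries after DSS exceeded the 3 fl/fl libraries after DSS. Oas1a was at 267, 156 and 147 CPM before and 21.7, 36.7 and 23.7 CPM after DSS in fl/fl mice, and 174, 180.4 and 163 CPM before and 68.6, 87 and 79.8 CPM after DSS in iΔmye mice, with an interaction of 1.66 (SE 0.34, adjusted p = 0.0219), and its call was lost without untreated iΔmye 1, untreated iΔmye 3 or DSS fl/fl 1 (adjusted p up to 0.0774). Oas1a and Oas1g are close copies, so reads may have been shared between them. Ifih1, the RNA sensor MDA5, had 1.39 (SE 0.29, adjusted p = 0.0237) and lost its call in 5 of 12 fits (adjusted p up to 0.0848), and Ifi44 had 2.47 (SE 0.56, adjusted p = 0.0363). Ifit1 (1.72, SE 0.46, adjusted p = 0.0639), Isg15 (1.03, SE 0.71, adjusted p = 0.478) and Irf7 (1.26, SE 0.52, adjusted p = 0.221) did not pass.

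Genes of interferon-gamma signalling and antigen presentation gave 3 calls in the interaction, where 0.934% of all genes were called higher. Over all genes 8.22% fell in fl/fl and 1.04% in iΔmye colon, so 0 falling in iΔmye colon in a short list is near the share of all genes. All 17 interferon-gamma chemokines and GTPases had interactions above 0 (median 1.48, or 0.95 without DSS iΔmye 2, with responses of -2.16 and -0.58), 13 fell in fl/fl and 0 in iΔmye colon, and 0 were called in the interaction by edgeR. Gbp2, a guanylate-binding GTPase, had 1.89 (SE 0.66, adjusted p = 0.152). Of 14 genes of MHC class I presentation 7 fell in fl/fl and 0 in iΔmye colon, and B2m and Psmb10 were called higher in the interaction. B2m, the light chain of class I, was at 804, 1109 and 661 CPM in DSS-treated fl/fl and 1688, 2230.0 and 1942 CPM in DSS-treated iΔmye colon, from 2784, 2142 and 2581 CPM and 1704, 2852 and 1916 CPM without DSS, with an interaction of 1.40 (SE 0.33, adjusted p = 0.0409). These 2 calls were lost in 9 and 10 of 12 fits without a library. Of 11 genes of MHC class II presentation 6 fell in fl/fl and 0 in iΔmye colon. Their median responses were -1.44 and 0.25 and all 11 lay above 0 both in the interaction and relative to the common scale (median 1.0, or 0.66 without DSS iΔmye 1), but only H2-DMb1 was called (1.93, SE 0.47, adjusted p = 0.0487), and not in 8 of 12 fits. Cd74, the invariant chain, was at 2147, 1854 and 2059 CPM in untreated fl/fl, 669.5, 1039 and 397 in DSS-treated fl/fl, 881, 1336 and 2164 in untreated iΔmye and 2163, 1906 and 1101 in DSS-treated iΔmye, with an interaction of 1.76 (SE 0.51, adjusted p = 0.0857). Its libraries overlap between DSS-treated iΔmye and untreated colon.

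**Figure D4:**
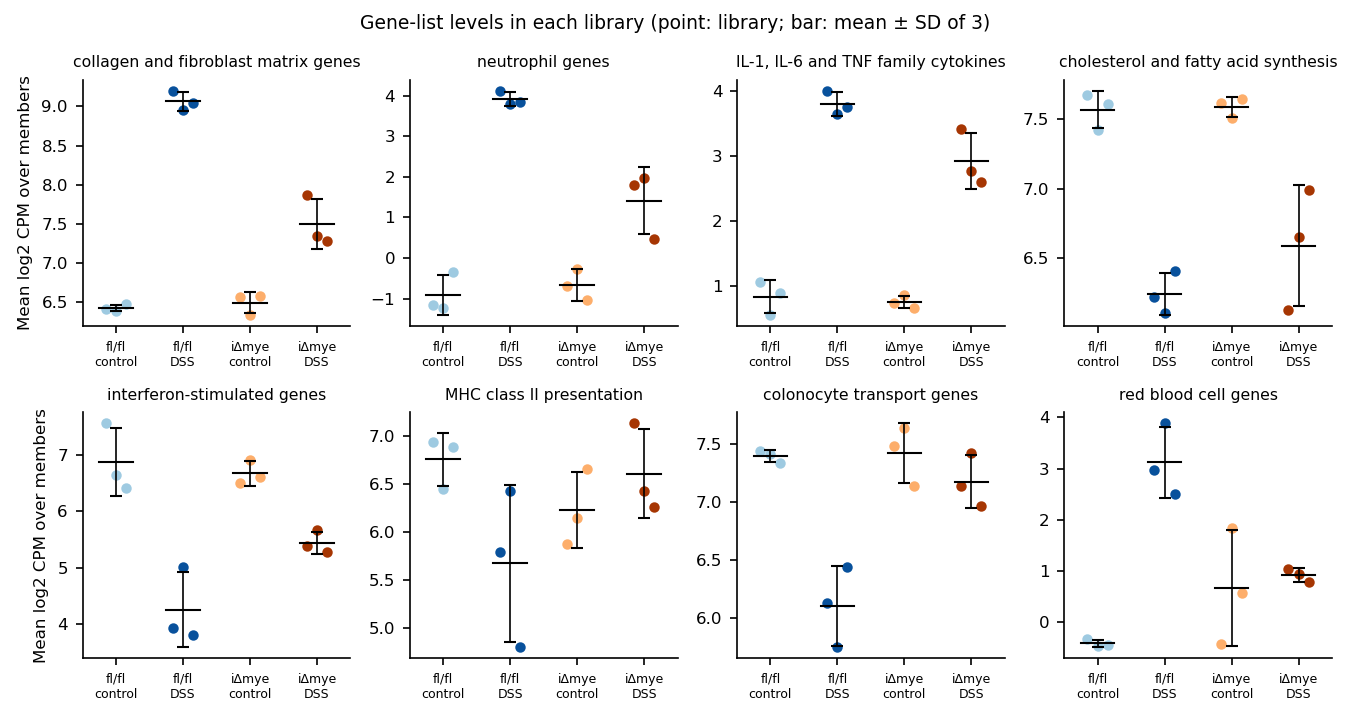
Mean log2 CPM of 8 gene lists in each library, as points with the mean and SD of 3 libraries per group. Collagen, neutrophil and red blood cell lists are separated after DSS, with fl/fl above iΔmye, and the MHC class II list overlaps between the groups after DSS.

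Motif letters were counted in the windows of both groups of called genes. Among the 225 genes called higher, 154 had a promoter window and 10 of these (6.49%) held an ISRE, against 8 of 275 (2.91%) for the genes called lower and 396 of 13848 (2.86%) for all tested genes with a window. The AP-1 letters were in 9.74%, 5.09% and 5% of these windows, the NF-kB letters in 1.3%, 0.364% and 0.376%, the C/EBP letters in 8.44%, 8% and 8.07% and the GAS letters in 5.84%, 6.18% and 6.16%. These shares were not tested. Oas1a (chr5:120907526-120907775, minus strand) holds overlapping ISRE matches that begin 20 and 14 bases before the start and a GAS match at 98 bases. Oas1g (chr5:120887614-120887863, minus strand) holds the same overlapping ISRE letters at 18 and 12 bases and no GAS match in the window. B2m (chr2:122147437-122147686, plus strand) has an ISRE match at 139 and an NF-kB match at 126 bases before the start.
Oas1a: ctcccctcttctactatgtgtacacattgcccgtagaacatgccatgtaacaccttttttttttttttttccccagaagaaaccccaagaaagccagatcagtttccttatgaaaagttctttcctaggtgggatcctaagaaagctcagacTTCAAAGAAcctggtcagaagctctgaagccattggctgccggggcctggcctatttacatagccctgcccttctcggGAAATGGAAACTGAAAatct
Oas1g: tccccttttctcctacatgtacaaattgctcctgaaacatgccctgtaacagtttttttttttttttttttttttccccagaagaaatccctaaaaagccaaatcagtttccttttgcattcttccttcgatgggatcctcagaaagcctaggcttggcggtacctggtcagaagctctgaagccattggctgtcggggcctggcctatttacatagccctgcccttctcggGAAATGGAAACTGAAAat
B2m: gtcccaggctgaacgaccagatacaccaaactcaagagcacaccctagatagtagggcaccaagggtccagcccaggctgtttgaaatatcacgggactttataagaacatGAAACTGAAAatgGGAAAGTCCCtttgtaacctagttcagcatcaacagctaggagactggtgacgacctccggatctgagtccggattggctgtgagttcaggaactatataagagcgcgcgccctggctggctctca

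Among absorptive colonocyte genes 7 were called higher. Of 25 colonocyte transport genes 16 fell in fl/fl and 1 in iΔmye colon, and the 7 calls stand beside 0.934% of all genes called higher. The median responses were -1.27 and -0.25 and the median interaction was 1.06. Their list level was 7.39 ± 0.05 in untreated fl/fl, 6.11 ± 0.34 in DSS-treated fl/fl, 7.42 ± 0.26 in untreated iΔmye and 7.17 ± 0.23 in DSS-treated iΔmye, and the ranges after DSS did not overlap. The iΔmye change was 19% of the fl/fl change (10.5% to 30% without single libraries), and the called members numbered 5 without untreated fl/fl 2, untreated iΔmye 2 or untreated iΔmye 3 and 10 without DSS iΔmye 1.

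Named members cover chloride, sodium, magnesium and butyrate uptake. Slc26a3, the chloride-bicarbonate exchanger of the colon surface, had responses of -2.80 and -0.94 and an interaction of 1.86 (SE 0.42, adjusted p = 0.034). Scnn1a, a subunit of the epithelial sodium channel, had 1.76 (SE 0.29, adjusted p = 0.00885), the carbonic anhydrase gene Car4 2.15 (SE 0.34, adjusted p = 0.00766) and the water channel gene Aqp4 2.67 (SE 0.53, adjusted p = 0.0205). Slc5a8, a sodium-coupled carrier of short-chain fatty acids, was at 426, 479 and 507 CPM in untreated fl/fl, 70.9, 50 and 82 in DSS-treated fl/fl, 448, 366 and 367 in untreated iΔmye and 183, 305 and 284 in DSS-treated iΔmye. The fl/fl libraries after DSS were below all others, and the interaction was 2.18 (SE 0.31, adjusted p = 0.0059). Trpm6, a magnesium channel, had 3.73 (SE 0.56, adjusted p = 0.00696) and the proton pump gene Atp12a 5.29 (SE 0.75, adjusted p = 0.0063). Of 18 goblet cell genes 12 fell in fl/fl and 2 in iΔmye colon, with a median interaction of 1.01 (0.66 without DSS iΔmye 5), and Muc13 alone was called (1.78, SE 0.37, adjusted p = 0.0263), which was lost in 6 of 12 fits. Of 22 colonocyte differentiation genes, Muc3 (1.82) and Ceacam20 (1.72) were called higher, and Muc3 lost its call without untreated fl/fl 1, untreated iΔmye 3 or DSS fl/fl 1 (adjusted p up to 0.0592).

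Several of the higher genes with the smallest p are epithelial. Clic5, which tethers microvilli to the actin core, was at 458, 425 and 454 CPM before and 72.8, 75.7 and 63.5 CPM after DSS in fl/fl mice, and 390.3, 418 and 385 CPM before and 193, 264 and 245 CPM after DSS in iΔmye mice, with an interaction of 1.89 (SE 0.22, adjusted p = 0.00289). Gsdmc4, a gasdermin C gene of surface epithelium, was at 81.9, 51.2 and 76.1 CPM in DSS-treated fl/fl and 579.7, 685 and 1152 CPM in DSS-treated iΔmye colon, from 1081, 557 and 974 CPM and 817, 346 and 579 CPM without DSS, with 4.11 (SE 0.48, adjusted p = 0.0029). The ubiquitin ligase gene Trim31 (1.68, SE 0.21, adjusted p = 0.00349), Nat8f4 (1.89, SE 0.24, adjusted p = 0.00395), the sialyltransferase gene St3gal4 (1.67, SE 0.23, adjusted p = 0.00495) and Sectm1b (1.71, SE 0.24, adjusted p = 0.00537) follow. Clic5, Gsdmc4 and Trim31 fell in fl/fl colon (-2.66, -3.64 and -1.71), and the iΔmye responses were -0.76, 0.47 and -0.03. None of these interaction calls was lost when a single library was left out.

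Among genes that mark position along the gut, Hottip and 2 posterior Hox genes were called higher. The long non-coding RNA Hottip, next to Hoxa13, was at 29.7, 19.6 and 26.5 CPM in untreated fl/fl, 1.25, 0.615 and 0.341 in DSS-treated fl/fl, 29, 22.8 and 25.2 in untreated iΔmye and 7.27, 12.2 and 18.5 in DSS-treated iΔmye, with an interaction of 4.05 (SE 0.54, adjusted p = 0.00397). Hoxb13, a homeobox gene of the distal end of the gut, was at 252, 139 and 190.3 CPM before and 4.93, 0.710 and 0.613 CPM after DSS in fl/fl mice, and 112, 87.2 and 237 CPM before and 28.6, 21.1 and 196 CPM after DSS in iΔmye mice, with an interaction of 5.69 (SE 1.14, adjusted p = 0.0246) that was lost in 5 of 12 fits. Hoxa13 was called as well (1.61, SE 0.31, adjusted p = 0.0156), and strand use in the counting is not stated, so reads of Hottip and Hoxa13 cannot be separated where they overlap. Of 11 posterior Hox genes these 2 were called higher, against 0.934% of all genes, and the median interaction was 0.22. The median was -0.30 without DSS iΔmye 5 and 1.49 without untreated iΔmye 3. Their summed level after DSS ran from 145 to 178 CPM in fl/fl and from 222 to 687 CPM in iΔmye colon, beside 463 to 573 and 425 to 647 CPM in untreated fl/fl and iΔmye colon. One of the 11 was at 0 counts, in DSS fl/fl 3, and the highest sum came from DSS iΔmye 5. The part of gut position in the epithelial results was not tested. Without DSS iΔmye 5 the colonocyte transport list had 7 members called higher. That fit still held the fl/fl libraries after DSS, where the Hox sums were lowest, so it does not bear on gut position. Of 16 transglutaminase, keratin and cornification genes 3 were called higher: Tgm3 (7.86, SE 1.11, adjusted p = 0.00734), Casp14 (7.94, SE 1.82, adjusted p = 0.0238, lost in 7 of 12 fits) and Sprr2a1 (2.37, SE 0.53, adjusted p = 0.0357, lost in 8 of 12). The number called was 1 without untreated fl/fl 1, untreated fl/fl 3, untreated iΔmye 1, DSS fl/fl 2 or DSS fl/fl 3 and 4 without DSS iΔmye 2.

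The 8 genes called beyond the common scale by edgeR all lay above it. Capn13 (ENSMUSG00000043705, chr17:73306464-73400866 on GRCm38), a calpain protease gene, was at 130.3, 63.7 and 90.1 CPM in untreated fl/fl, 13.7, 10.7 and 13.1 in DSS-treated fl/fl, 74, 63.2 and 71 in untreated iΔmye and 106, 74.2 and 126 in DSS-treated iΔmye. It fell in fl/fl colon (-2.92) and had an iΔmye response of 0.56, with an interaction of 3.48 (SE 0.35, adjusted p = 0.000756) and 2.25 (SE 0.28, adjusted p = 0.028) beyond the scale. Slc5a9 (chr4:111875375-111902918), a sodium-coupled sugar carrier gene, was at 8.86, 13.8 and 13.3 CPM before and 19.9, 15.5 and 24.2 CPM after DSS in fl/fl mice, and 16.3, 14.5 and 10.7 CPM before and 78, 67.1 and 75.7 CPM after DSS in iΔmye mice. It is one of the genes with the larger response in iΔmye colon (2.41 against 0.73), and lay 1.99 (SE 0.25, adjusted p = 0.028) beyond the scale. Nos2 (chr11:78920787-78960254), the inducible nitric oxide synthase of macrophages and epithelium, was at 91.7, 110.0 and 50.5 CPM in DSS-treated fl/fl and 349, 227 and 186 CPM in DSS-treated iΔmye colon, from 11.7, 10.8 and 12.8 CPM and 4.73, 15 and 11.4 CPM without DSS. Its responses were 2.83 and 4.61, and the value beyond the scale was 2.97 (SE 0.42, adjusted p = 0.0379), while the plain interaction of 1.78 (SE 0.51, adjusted p = 0.0857) did not pass.

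The other 5, like Capn13, had opposite fitted signs in the genotypes. Trim40, an intestinal TRIM family gene, had responses of -0.27 and 1.34 and 1.5 (SE 0.20, adjusted p = 0.0379) beyond the scale. Ms4a12, a membrane protein gene of colonocytes, was at 43.9, 30.1 and 33 CPM in untreated fl/fl, 10.7, 9.14 and 16.1 in DSS-treated fl/fl, 26.5, 20.5 and 26.9 in untreated iΔmye and 43.2, 43.1 and 68.5 in DSS-treated iΔmye, and its value beyond the scale was 1.98 (SE 0.29, adjusted p = 0.0379). BC025446 lay 1.60 (SE 0.24, adjusted p = 0.0379) beyond the scale. Ces2f, a carboxylesterase gene, was at 7.73, 4.81 and 9.46 CPM before and 1.14, 0.852 and 0.885 CPM after DSS in fl/fl mice, and 2.73, 4.25 and 4.15 CPM before and 11.8, 12.8 and 80.8 CPM after DSS in iΔmye mice, with 4.94 (SE 0.70, adjusted p = 0.0379) beyond the scale. One iΔmye library after DSS, number 5, held far more Ces2f than its fellows. Gm8540 was the eighth, with responses of -1.86 and 1.98 and a value of 3.05 (SE 0.42, adjusted p = 0.0379) beyond the scale. None of the 8 passed when FPKM had to reach 1 in 3 libraries, and without a filter 133 genes passed (94 higher, 39 lower), all 8 among them. Among the 7 other than Gm8540 each call was lost in 6 to 9 of the 12 fits without a library (adjusted p of Nos2 up to 0.219 and of Ces2f up to 0.234). The Ms4a12 window is shown since it is one of 4 windows found for the 8 genes and the only one with a match, an AP-1 sequence 171 bases before the start (chr19:11232454-11232703, minus strand).
Ms4a12: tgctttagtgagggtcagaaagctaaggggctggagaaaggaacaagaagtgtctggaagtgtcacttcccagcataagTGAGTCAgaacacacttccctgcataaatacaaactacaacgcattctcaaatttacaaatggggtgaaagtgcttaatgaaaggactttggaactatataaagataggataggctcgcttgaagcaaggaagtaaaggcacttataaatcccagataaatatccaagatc

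**Figure D5:**
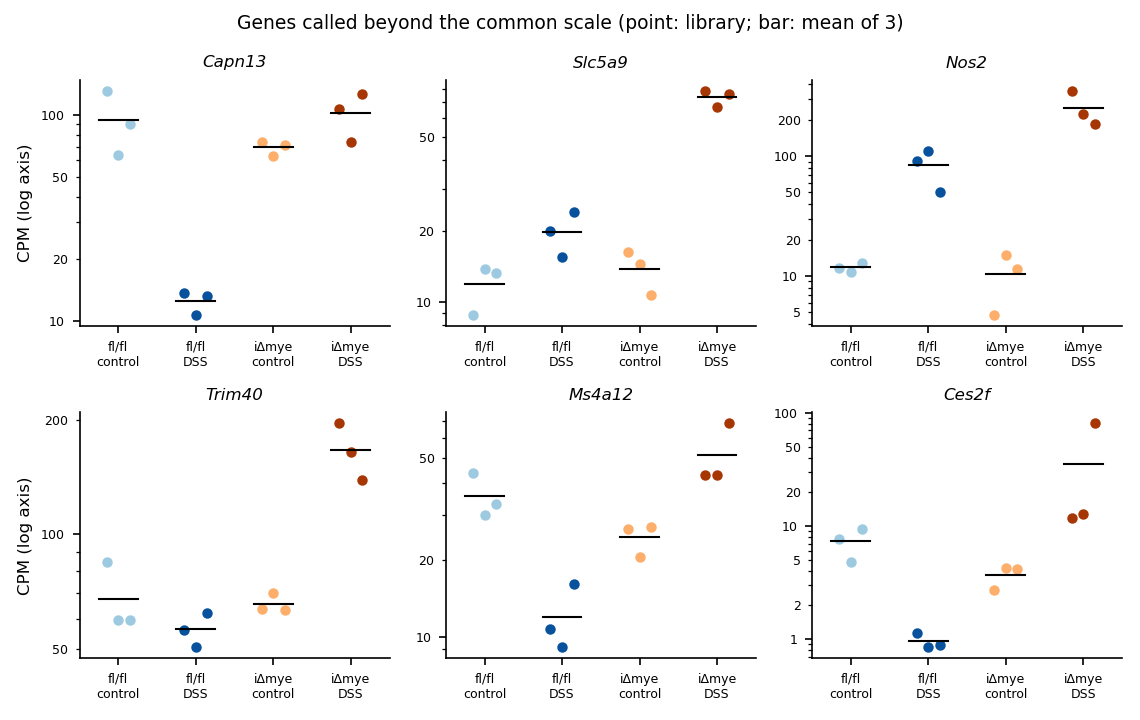
CPM (log axis) in each library for 6 of the genes called beyond the common scale, as points with the group mean. The DSS-treated iΔmye points of Slc5a9, Nos2 and Ces2f lie above the untreated points, and Ces2f of DSS iΔmye 5 stands apart at 80.8 CPM.

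Epithelial antimicrobial and acute phase genes were divided between these patterns. Of 24, 12 rose and 6 fell in fl/fl colon and 9 rose in iΔmye colon, and the median response was 1.21 in fl/fl and 1.86 in iΔmye colon. Lypd8, which keeps flagellated bacteria off the colon surface, was called higher (1.73, SE 0.29, adjusted p = 0.00885), and the polymeric immunoglobulin receptor gene Pigr was the other member called higher. Saa3 (-4.73, SE 0.92, adjusted p = 0.02), Hp (-4.49, SE 0.84, adjusted p = 0.0167) and Lcn2 were called lower, and Hp lost its call without untreated fl/fl 1 or untreated fl/fl 3 (adjusted p up to 0.0533). The mean level of the list gave a smaller change in iΔmye colon (67.3% of the fl/fl change) although the median interaction was 0.71 (0.16 without untreated fl/fl 3), so mean and median differ in sign. The called members numbered 1 to 4 higher and 2 to 4 lower without single libraries, with both lowest counts without each untreated fl/fl library and both highest without DSS iΔmye 1.

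The 8 kept genes named for the size of their mean response are given first. Aldh1a3 (ENSMUSG00000015134, chr7:66390890-66427517 on GRCm38), a retinaldehyde dehydrogenase that makes retinoic acid, was at 3.48, 4.06 and 4.51 CPM in untreated fl/fl, 45.1, 44.1 and 64.6 in DSS-treated fl/fl, 4.61, 3.89 and 4.39 in untreated iΔmye and 46.2, 33.9 and 77.9 in DSS-treated iΔmye. Its responses were 3.67 and 3.61, with libraries of both genotypes overlapping after DSS. Osmr, the oncostatin M receptor of stromal cells, was at 20.6, 15.5 and 19.5 CPM before and 114, 122 and 122 CPM after DSS in fl/fl mice, and 15.3, 18 and 13.5 CPM before and 93.8, 68.4 and 73.2 CPM after DSS in iΔmye mice, with responses of 2.69 and 2.33. The Osmr libraries after DSS did not overlap between the genotypes, yet the interval of the difference lay within 1. Axin2, a Wnt target gene of crypt base cells, fell in both genotypes, at 10.5, 8.62 and 6.74 CPM in DSS-treated fl/fl and 7.77, 5.54 and 14.6 CPM in DSS-treated iΔmye colon, from 57.5, 47.8 and 42.3 CPM and 45, 40.5 and 69.5 CPM without DSS. Cdo1, cysteine dioxygenase, was at 27.4, 36.6 and 40 CPM in untreated fl/fl, 8.62, 9.42 and 7.9 in DSS-treated fl/fl, 33.5, 37.9 and 56 in untreated iΔmye and 8.98, 11.2 and 14.3 in DSS-treated iΔmye, with responses of -2.0 and -1.88. Clip4 (2.49 and 2.25), the CSF1 receptor ligand gene Il34 (1.84 and 1.66) and the ectoenzyme gene Bst1 (1.64 and 1.57) rose in both, and the endothelial lipase gene Lipg (-1.66 and -1.70) fell in both. The values were used to choose these genes, so they are a description.

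Lipid synthesis and cell cycle genes had 0 calls in the interaction by edgeR, which is near the 2.55% of all genes for lists of this size. Over all genes 8.22% fell in fl/fl and 1.04% in iΔmye colon. Of 22 cholesterol and fatty acid synthesis genes 16 fell in fl/fl and 6 in iΔmye colon, and the list changed in iΔmye colon by 75.4% of the fl/fl change (57.9% to 90.6% without single libraries). Fasn, fatty acid synthase (-1.43 and -1.36), Acaca, acetyl-CoA carboxylase (-1.21 and -1.19), and Fdps, farnesyl diphosphate synthase (-1.34 and -1.34), met the rule for a kept response. Of 26 cell cycle genes 25 fell in fl/fl and 17 in iΔmye colon, with a median beyond the common scale of -0.04 (-0.22 without untreated fl/fl 3 and 0.17 without DSS iΔmye 2). All 26 interactions were above 0 (median 0.60, or 0.29 without DSS iΔmye 5), and Mcm5, a subunit of the replicative helicase, was kept (-1.53 and -1.30). Oxidative phosphorylation subunits (27), where 12 fell in fl/fl and 0 in iΔmye colon, and cytosolic ribosomal protein genes (30), where none passed in either genotype, gave 0 calls in the interaction.

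Further lists are described together. Of 17 metallothionein and antioxidant genes 4 were called lower (4 or 5 without single libraries), against 1.61% of all genes. Among them were Gpx3 (-2.44, SE 0.42, adjusted p = 0.0108) and Sod3 (-2.31, SE 0.33, adjusted p = 0.0059), the extracellular glutathione peroxidase and superoxide dismutase. Of 16 enteric neuron and glia genes 13 rose in fl/fl and 6 in iΔmye colon, and 2 met the rule for a kept response. In 15 of the 16 the interaction was below 0, with a median of -0.55 (-0.34 without DSS iΔmye 2), and Tubb3 was called lower (-1.55, SE 0.32, adjusted p = 0.0238), a call lost in 6 of 12 fits (adjusted p up to 0.0677). Of 16 complement genes 10 rose in fl/fl and 9 in iΔmye colon, and Serping1, the C1 inhibitor, was called lower (-1.21, SE 0.29, adjusted p = 0.0451), a call lost in 10 of 12 fits. Of 14 Serpina3 and stefin genes 12 rose in fl/fl and 5 in iΔmye colon with 0 called, and the median responses of 4.77 and 2.25 became 3.52 and 1.06 with bounds for the 8 members at the floor. Pancreas genes were scattered within groups, with a list SD of 2.01 to 5.55 on the log2 scale, and gave 0 calls among 16. Of 19 enteroendocrine and tuft cell genes 16 had interactions below 0, with a median of -0.87 (-0.57 without DSS iΔmye 5). Alox5ap, which feeds the leukotriene pathway and is used as a tuft cell marker, was the member called lower (-2.21, SE 0.38, adjusted p = 0.00938). Insl5, a hormone gene of distal enteroendocrine cells, was the member called higher (3.39, SE 0.82, adjusted p = 0.0476) and lost its call in 9 of 12 fits. Its interaction was 1.78 without DSS iΔmye 5.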

How the data were processed

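Polyadenylated RNA of whole mouse colon was sequenced in 12 libraries, 3 for each of 4 groups taken from the sample titles, and the RNA had been cleaned with lithium chloride. The submitters' processing notes name CASAVA 1.8, fastp, HISAT2 2.0.5, featureCounts 1.5.0-p3 and DESeq2 1.20.0 on GRCm38/mm10, and strand use is not given in the sources used here. The authors deposited whole-number counts per gene and FPKM values for each library in 1 table. Group means, fold changes and p-values of the authors' own comparisons are also in that table and were not used. Nothing says whether libraries came from separate animals beyond the statement that samples were drawn at random, so p-values measure the spread between these libraries.

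Counts of genes with FPKM of at least 0.1 in 3 libraries were fitted with edgeR 4.0.16 (R 4.3.3, TMM scaling, quasi-likelihood test) in 1 model of 4 group means. A call needed a Benjamini-Hochberg adjusted p under 0.05 over all 24102 genes and a log2 fold change of 1 or more in size. The common scale is a total least squares slope through the origin, which was then treated as known. List levels are means of log2 CPM with a prior count of 1. Genes with a group at 3 counts or fewer in each library were set to a bound in the list medians described as such. Alternatives used limma 3.58.1 and DESeq2 1.42.0, another filter, other scalings, single libraries left out and the replicate number as a block. The test was tried on simulated data beforehand. Promoters came from RefSeq on GRCm38.p6 and plots from matplotlib 3.10.9.

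Named genes were those with a gene symbol other than Gm, Rik, immunoglobulin or T cell receptor names and a mean FPKM of at least 1 in a group: up to 10 called higher and 10 lower by p, up to 12 beyond the scale, up to 8 kept by size, up to 3 called members and the most abundant member of each of 54 lists, Tmem173 and Lyz2. Other members named with a list, and Gm8540, were chosen after their values were seen. Some genes that the rule takes are not reported here. Members and lists were chosen with earlier results of these data known. Of 24089 symbols 13848 had a promoter window.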

Additional observations from a re-analysis of the deposited data

Results flagged for a closer look

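The DSS response differed between the genotypes, by the interaction test of edgeR, for 614 genes and among them for 81 of the named genes reported here, whose log2 interactions are given here together, negative where the response of iΔmye colon was the lower. No cause was tested for these differences, and 25 of the 81 calls were lost in at least 1 of the fits that left out a library.

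In the red cell, heme and iron genes Hba-a1 had -5.88, Hbb-bs -5.24 and Hbb-bt -6.62, and the values were -4.49 for Hp, -4.09 for Lcn2 and -3.40 for Hmox1. Matrix genes gave -3.06 for Lox, -2.47 for Col12a1, -2.36 for Fbln2, -2.06 for Loxl2, -1.94 for Matn2, -1.80 for Col5a2, -1.78 for Col3a1 and -1.26 for Smoc2. Protease and inhibitor genes gave -2.98 for Serpine2, -2.52 for Mmp2, -2.46 for Adamts1, -1.72 for Mmp14 and -1.21 for Serping1. In vessel and metabolic stress genes they were -2.85 for Angpt2, -2.82 for Angptl4, -2.35 for Kcnj8, -1.84 for Slc16a3, -1.71 for Tie1, -1.69 for Epn2 and -1.60 for Flt1, with -2.44 for Gpx3 and -2.31 for Sod3. Mediator and myeloid genes gave -3.50 for Pf4, -3.38 for Cxcl1, -3.06 for Ereg, -2.87 for Ptges, -2.74 for Ptgs2, -2.69 for Cd163, -2.27 for Ccl2, -2.21 for Alox5ap, -2.08 for Mrc1 and -1.31 for Itgam. The regulators Cebpb, Ier3, Cebpd and Atf5 had -2.27, -1.64, -1.53 and -1.31, and Tubb3 and Sdc1 had -1.55 and -1.38.

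On the positive side, interferon and presentation genes gave 2.13 for Oas1g, 1.93 for H2-DMb1, 1.66 for Oas1a, 1.40 for B2m, 1.39 for Ifih1 and 1.23 for Psmb10. Epithelial transport and surface genes gave 5.29 for Atp12a, 3.73 for Trpm6, 2.18 for Slc5a8, 1.89 for Clic5, 1.82 for Muc3, 1.78 for Muc13, 1.73 for Lypd8, 1.72 for Ceacam20, 1.71 for Sectm1b, 1.68 for Slc5a9 and 1.67 for St3gal4. Genes of the cornified layer and of gut position had 7.94 for Casp14, 7.86 for Tgm3, 5.69 for Hoxb13, 4.05 for Hottip, 2.37 for Sprr2a1 and 1.61 for Hoxa13. The remaining values were 6.17 for Ces2f, 5.34 for Pla2g2a, 4.11 for Gsdmc4, 3.48 for Capn13, 3.39 for Insl5, 2.64 for Ms4a12, 2.14 for Sult1b1, 2.13 for Il18, 2.06 for Ly6a, 1.89 for Nat8f4, 1.86 for BC025446, 1.85 for Cyp2d34, 1.68 for Trim31 and 1.61 for Trim40.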

How the results depend on the processing

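The interaction was refitted under 23 alternatives, and none of the 99 called values of named genes changed sign in any of them. Calls were lost for 0 of the 99 without a filter on low values, for 9 with FPKM of at least 1, for 1 each with DESeq2 size factors and upper quartile scaling, for 0 of 98 with DESeq2, which gave no adjusted p for Insl5, for 37 and 13 with limma on log2(FPKM + 0.1) and log2(FPKM + 1), for 6 with the replicate block, for 11 with the Xist level as a covariate, for 10 with robust dispersions and for 44 in the 9 libraries of low Xist level. Leaving out 1 library at a time lost 0 (DSS iΔmye 1) to 27 (untreated fl/fl 3 or untreated iΔmye 1) of them. The covariate, the robust fit, the low Xist libraries and the other scales were chosen after seeing the data.

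Counts moved more than directions. Without a filter 1228 genes were called (756 lower, 472 higher), with all but 13 of the 614 among them, and 133 lay beyond the common scale (94 higher, 39 lower). With FPKM of at least 1 the count beyond the scale was 0. DESeq2 called 1259 (806 lower, 453 higher) and 124 beyond the scale (87 higher, 37 lower). With limma the counts were 368 in all, 86 higher and 2 beyond the scale for a pseudocount of 0.1, and 147 higher and 1 beyond for a pseudocount of 1. The low Xist libraries alone gave 201 (136 lower, 65 higher) and 0 beyond the scale, with 101 kept genes, 16 of them among the 70, and an unadjusted p gave 2747 (1531 lower, 1216 higher) and 957 beyond it. An ordinary least squares scale over the genes called in fl/fl colon was 0.41 (0.4095), with 18 genes beyond it. That fit changed both the estimator and the gene set. DESeq2 size factors gave 422 lower and 205 higher, and upper quartile scaling 364 and 252. Without single libraries the counts ran from 267 (without untreated fl/fl 1) to 1728 (without DSS iΔmye 1) in all, from 176 to 1020 lower and from 90 to 708 higher, the common scale from 0.514 to 0.686, the genes beyond it from 0 to 14 and the kept genes from 29 to 172, with 26 to 48 of the 70 among them. These fits use fewer samples, and the cause of the other shifts was not tested. The interaction of Tmem173, which was not called, lay between -0.38 without DSS iΔmye 1 and 0.15 without DSS iΔmye 2, and it was above 0 also without untreated fl/fl 2 (0.15) and untreated iΔmye 3 (0.10) and in the low Xist libraries (0.057).

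The labels do not say that equal numbers pair the libraries. A check by correlation did not show pairing, which does not settle the question. Deviations from group means correlated at -0.10 to 0.11 between libraries with the same number (15 pairs) and at -0.29 to 0.21 between others, and number 5 occurs in 1 group only. With the replicate block 590 genes were called, 441 of them among the 614, with a common scale of 0.663, 31 genes beyond it and 144 kept, 38 of them among the 70.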

Other observations

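The genes Ereg, Angptl4 and Slc16a3 were called lower. Ereg, an EGF receptor ligand, was at 7.73, 5.69 and 6.89 CPM in untreated fl/fl, 822, 266 and 920.3 in DSS-treated fl/fl, 7.46, 12.3 and 5.35 in untreated iΔmye and 115, 93 and 90.9 in DSS-treated iΔmye, with an interaction of -3.06 (SE 0.54, adjusted p = 0.0123). Angptl4, an inhibitor of lipoprotein lipase, was at 3.41, 4.26 and 3.63 CPM before and 123, 110.5 and 57.2 CPM after DSS in fl/fl mice, and 5.58, 4.25 and 10.5 CPM before and 33.9, 24.6 and 15.7 CPM after DSS in iΔmye mice, with an interaction of -2.82 (SE 0.51, adjusted p = 0.0134). Both genes stood higher in each fl/fl library after DSS than in each iΔmye library after DSS. Slc16a3, the lactate exporter MCT4, had an interaction of -1.84 (SE 0.34, adjusted p = 0.0134), and among 22 glycolysis and hypoxia genes it was the one called. Of those 22, 11 had interactions above 0 and 11 below, with a median of 0.026 (-0.12 without DSS iΔmye 5 and 0.11 without DSS iΔmye 1).

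A further 3 named genes, Sult1b1, Cyp2d34 and Ly6a, were called higher. Sult1b1, a cytosolic sulfotransferase gene, was at 44.6, 29.2 and 54.2 CPM in DSS-treated fl/fl and 109.9, 138 and 269 CPM in DSS-treated iΔmye colon, from 179.7, 152 and 205 CPM and 149, 202 and 141 CPM without DSS, with an interaction of 2.14 (SE 0.43, adjusted p = 0.0208). That call was lost in 6 of 12 fits without a library (adjusted p up to 0.0654). Cyp2d34, a cytochrome P450 gene, had an interaction of 1.85 (SE 0.35, adjusted p = 0.0151). Ly6a, also called Sca-1 and raised in injured crypts, had an interaction of 2.06 (SE 0.40, adjusted p = 0.0183), lost without untreated iΔmye 1 or untreated iΔmye 2 (adjusted p up to 0.0558).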
